A study of Homo sapiens with 18 samples.

Results

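The comparison described here sets the Hodgkin lymphoma line L428-PAX5 against its parent L428 when both had received mifepristone, 5-aza-2′-deoxycytidine (5-aza-dC) and trichostatin A (TSA). It used the 3 arrays of L428-PAX5+MAT and the 3 arrays of L428+MAT, 6 of the 18 arrays of the study, and all 18417 genes that had a probe set with a single gene symbol. L428-PAX5 is a derivative of L428 in which the labels' protocols state that PAX5 was induced before the drugs were given. Both groups were kept in 0.25 nM mifepristone for 2 days, then in 3 µM 5-aza-dC for 3 days, with 640 nM TSA added for the last 24 hours, which gave 5 days of treatment in all. The medium of L428-PAX5 also held 25 mM HEPES. The titles of the 3 L428-PAX5+MAT arrays write L425-PAX5, their cell line field gives L428-PAX5, and the field was followed. L428-PAX5 without mifepristone was not analysed here, and the sources used here do not say whether the derivative is 1 clone, so PAX5, the derivative line and the medium cannot be told apart in this comparison. The other 4 groups of 3 arrays were L428-PAX5 and L428 with mifepristone alone (L428-PAX5+M and L428+M) and the untreated Burkitt lymphoma lines Raji and Namalwa. The labels do not say whether the 3 arrays of a group came from separate cultures. The p-values and standard errors (SE) therefore measure the spread between arrays of a group, pooled over all 18 arrays, which may be technical.

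PAX5 is the transcription factor that commits lymphoid progenitors to the B lineage: it activates genes such as those of the B-cell receptor and represses genes of other lineages. Hodgkin lymphoma cells descend from B cells but have lost most of that program, and they are known for strong NF-kB and JAK-STAT signalling and for secreting cytokines and chemokines. 5-aza-dC is built into DNA and traps DNA methyltransferases, so that methylation is lost as cells divide. TSA blocks histone deacetylases. Both drugs can bring silent genes, germline genes and interferon-response genes among them, into expression.

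PAX5, the induced gene, had log2 values of 12.84, 12.85 and 12.67 in L428-PAX5+MAT, against 7.08, 7.14 and 7.28 in L428+MAT. Every array of the derivative thus lay above every array of the parent, by 5.62 ± 0.3 on the log2 scale (difference of group means ± SE, n = 3 per group), which is a 49.2-fold difference (limma adjusted p = 3.96e-10). All differences below are given in the same way, L428-PAX5+MAT minus L428+MAT on the log2 scale, with limma's p adjusted over the 18417 genes, and a gene is said to rise or fall only where that p is under 0.05. A dim probe set has a compressed scale, so that small values understate a difference; the median of all values was 7.18. In these bulk samples, fewer cells expressing a gene and less RNA per cell cannot be told apart.

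FSCN1, the actin-bundling protein fascin and a marker of Hodgkin lines, was bright in both groups. It had 12.37, 12.11 and 11.39 in L428-PAX5+MAT, against 12.91, 12.82 and 12.2 in L428+MAT, and its difference of -0.69 ± 0.31 passed only with the replicate number as a block or with array weights. Other markers of Hodgkin lines, TNFRSF8, CCL22 and CCL17, were lower in L428-PAX5+MAT, so FSCN1 does not stand for all of them. The T-cell receptor chain CD3E, which these cells should lack, averaged 5.15 in L428-PAX5+MAT and 5.13 in L428+MAT. Pairs of arrays of one group correlated across genes with r from 0.9628 to 0.985 in L428-PAX5+MAT and from 0.9829 to 0.9909 in L428+MAT, and the lowest of these was between L428-PAX5+MAT replicates 2 and 3. The median SD of a gene was 0.225 in L428-PAX5+MAT and 0.182 in L428+MAT. The spread in the derivative had a direction. Among the 1271 genes that fell at least 2-fold, L428-PAX5+MAT replicate 2 lay farthest from the L428+MAT mean for 935 (73.6%) and replicate 3 lay nearest for 769 (60.5%). Among the 826 genes that rose at least 2-fold, replicate 2 lay farthest for 539 (65.3%) and replicate 3 nearest for 486 (58.8%). The part of this spread in the results was not tested beyond leaving each array out, which is given beside the results that it changed.

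A large part of the transcriptome differed between the lines under the drugs. Of the 18417 genes, 2642 were higher in L428-PAX5+MAT (14.3%) and 3256 were lower (17.7%). For 5561 of these 5898 genes the values of the groups did not overlap. The tests used the same arrays, so this count is no separate support, and the share over all genes is not given here. Differences of at least 2-fold numbered 826 upward and 1271 downward, and differences of at least 8-fold numbered 15 and 34. The median difference over all genes was 0.00. The plot of the largest differences shows the arrays of both groups gene by gene.

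**Figure D1:**
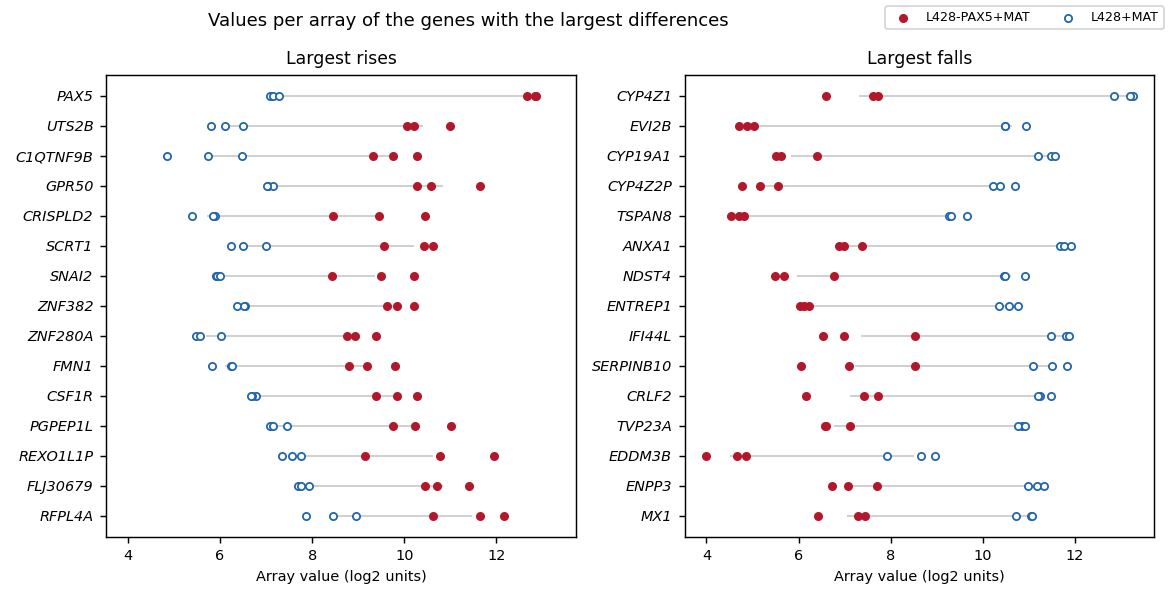
Log2 values per array of the 15 largest rises (left) and the 15 largest falls (right), with L428-PAX5+MAT as filled red points and L428+MAT as open blue points and a grey line joining the group means. No gene shown has overlapping groups, which was a condition of the choice. PAX5 leads the rises at 5.62 and CYP4Z1 the falls at -5.79.

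The largest rises after PAX5 included a neuropeptide gene, an orphan receptor and zinc finger factors. UTS2B, a urotensin-related peptide, had 10.05, 10.99 and 10.2 in L428-PAX5+MAT, against 5.81, 6.1 and 6.5 in L428+MAT, a rise of 4.28 ± 0.25. GPR50, a melatonin-receptor-related orphan receptor, had 10.59, 11.65 and 10.28 in L428-PAX5+MAT, against 7.05, 7.15 and 7.01 in L428+MAT, a rise of 3.77 ± 0.23. SNAI2, the zinc finger factor Slug, had 9.49, 10.2 and 8.43 in L428-PAX5+MAT, against 5.91, 5.94 and 5.99 in L428+MAT, a rise of 3.42 ± 0.3. The values of these genes in L428-PAX5+MAT were highest in replicate 2, and even the lowest array of the derivative stood more than 2 log2 units above the highest of the parent. C1QTNF9B, a secreted C1q and TNF-related protein, rose by 4.09 ± 0.33, CRISPLD2, a secreted cysteine-rich protein, by 3.74 ± 0.31, and SCRT1, a neuronal zinc finger repressor, by 3.62 ± 0.31. ZNF382, ZNF280A, FMN1, PGPEP1L, REXO1L1P, FLJ30679 and RFPL4A rose by 3.05 to 3.41. CSF1R, the receptor for macrophage colony-stimulating factor, which PAX5 is reported to repress in normal B cells and which Hodgkin cells can express, had 9.85, 10.28 and 9.39 in L428-PAX5+MAT, against 6.79, 6.69 and 6.68 in L428+MAT, a rise of 3.12 ± 0.18 (adjusted p = 7.92e-10).

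Falls of at least 8-fold outnumbered rises of that size. CYP4Z1, a fatty acid hydroxylase, had 7.73, 7.61 and 6.59 in L428-PAX5+MAT, against 13.26, 12.84 and 13.19 in L428+MAT, a difference of -5.79 ± 0.25. Its pseudogene CYP4Z2P had 5.56, 5.16 and 4.77 in L428-PAX5+MAT, against 10.23, 10.37 and 10.69 in L428+MAT; the sequences of the pair are nearly identical, so that their signals may be shared. CYP19A1, the aromatase that makes oestrogens, had 5.61, 5.51 and 6.4 in L428-PAX5+MAT, against 11.47, 11.19 and 11.56 in L428+MAT (-5.57 ± 0.24). EVI2B, a leukocyte membrane protein, had 5.04, 4.89 and 4.7 in L428-PAX5+MAT, against 10.48, 10.47 and 10.94 in L428+MAT (-5.75 ± 0.18). Its means were 11.41 in Raji and 10.96 in Namalwa, close to that of L428+MAT. TSPAN8, a tetraspanin, differed by -4.72 ± 0.25, ANXA1, annexin A1, by -4.71 ± 0.2, and ENTREP1 by -4.43 ± 0.17. CRLF2, the receptor chain for thymic stromal lymphopoietin, had 7.41, 6.17 and 7.73 in L428-PAX5+MAT, against 11.48, 11.25 and 11.2 in L428+MAT. It differed by -4.21 ± 0.28, and replicate 2 of the derivative was the lowest. NDST4 (-4.64), SERPINB10 (-4.24), TVP23A (-4.09), EDDM3B (-4.0) and ENPP3 (-3.99) fell as well.

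Promoter windows from RefSeq (GRCh38.p14, 250 bases before to 50 after the start of the gene) were matched to 14237 of the 18417 genes, and CpG dinucleotides, the sites of DNA methylation, were counted in them. Sequences of 2 strong rises and 2 strong falls are shown, since most windows of the largest falls held few CpG sites. Capitals mark each CpG.
UTS2B (chr3:191330477-191330776, minus strand): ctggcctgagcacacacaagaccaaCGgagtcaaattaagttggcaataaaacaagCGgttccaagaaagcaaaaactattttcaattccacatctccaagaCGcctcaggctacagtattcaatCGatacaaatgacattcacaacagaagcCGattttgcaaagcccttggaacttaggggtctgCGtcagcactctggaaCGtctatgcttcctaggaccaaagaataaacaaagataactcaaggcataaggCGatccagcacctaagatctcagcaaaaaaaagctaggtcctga
CRISPLD2 (chr16:84819735-84820034, plus strand): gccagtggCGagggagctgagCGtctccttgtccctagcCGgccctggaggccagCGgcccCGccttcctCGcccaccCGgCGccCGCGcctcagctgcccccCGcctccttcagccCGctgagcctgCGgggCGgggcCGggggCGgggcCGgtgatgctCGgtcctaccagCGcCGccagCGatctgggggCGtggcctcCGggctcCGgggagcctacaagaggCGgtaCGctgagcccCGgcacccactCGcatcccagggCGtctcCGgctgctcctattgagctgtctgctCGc
CYP19A1 (chr15:51318448-51318747, minus strand): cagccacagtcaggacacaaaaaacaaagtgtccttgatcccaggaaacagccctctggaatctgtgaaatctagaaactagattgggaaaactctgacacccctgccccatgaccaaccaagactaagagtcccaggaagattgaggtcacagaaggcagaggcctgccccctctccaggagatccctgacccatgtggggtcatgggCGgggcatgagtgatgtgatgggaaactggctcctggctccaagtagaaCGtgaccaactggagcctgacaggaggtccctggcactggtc
TSPAN8 (chr12:71157950-71158249, minus strand): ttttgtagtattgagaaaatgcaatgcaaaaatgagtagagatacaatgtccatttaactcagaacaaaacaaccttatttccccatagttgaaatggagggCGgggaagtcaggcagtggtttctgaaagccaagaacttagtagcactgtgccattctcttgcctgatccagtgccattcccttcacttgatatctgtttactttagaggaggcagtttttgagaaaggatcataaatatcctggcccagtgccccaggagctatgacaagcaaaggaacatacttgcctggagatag
The windows hold 8 CpG sites for UTS2B and 31 for CRISPLD2, which rose, and 2 for CYP19A1 and 1 for TSPAN8, which fell. Among the genes with a window, the median was 23 CpG sites for all, 25 for all that rose and 25 for all that fell. The 26 genes with a window that fell at least 8-fold had a median of 2.5, and 18 of them (69.2%) held under 5 sites, against 15.7% of all genes. The 1044 genes with a window that fell at least 2-fold had a median of 23, as all tested genes did, and 152 of them held under 5 sites. Of all genes with a window, 9.62% of those that fell and 9.9% of those that rose held under 5. ENTREP1, also among the largest falls, has 13. Of the 11 with a window that rose at least 8-fold, 1 held under 5 sites and the median was 11. The PAX5 core motif GCGTGAC, on either strand, was in 3.83% of the windows of genes that rose, 3.28% of those that fell and 3.23% of all.

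For every list below, the shares among all genes were 14.3% higher and 17.7% lower. Among the 9209 genes with a mean above the median of all genes they were 16.6% and 28.1%. Genes of the interferon response had the largest share of falls among the 33 gene lists examined. These genes encode antiviral effectors and sensors and are switched on through STAT factors when a cell senses interferon. Of 37 measured, 32 were lower in L428-PAX5+MAT (86.5%, against 17.7% of all genes) and 0 were higher, also at an unadjusted limma p under 0.05. The median difference of the list was -1.53, against 0.00 over all genes. The list mean was 7.60 to 8.01 on the arrays of L428-PAX5+MAT and 9.52 to 9.65 on those of L428+MAT.

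MX1, an antiviral GTPase, had 7.3, 6.42 and 7.45 in L428-PAX5+MAT, against 11.04, 11.07 and 10.72 in L428+MAT, a 14.8-fold fall (-3.89 ± 0.21, adjusted p = 3.88e-10). OAS2, a sensor of double-stranded RNA, had 6.62, 6.43 and 7.5 in L428-PAX5+MAT, against 10.55, 10.3 and 10.3 in L428+MAT (-3.53 ± 0.2). IFITM1, a membrane protein that blocks virus entry, had 8.8, 8.58 and 9.1 in L428-PAX5+MAT, against 12.43, 12.6 and 12.36 in L428+MAT (-3.63 ± 0.16). IFI44L had 6.98, 6.54 and 8.52 in L428-PAX5+MAT, against 11.47, 11.8 and 11.88 in L428+MAT (-4.37 ± 0.34). No group overlapped with the other for these genes, and replicate 3 of the derivative was its highest array for each. Falls were also seen for SAMD9L (-3.03), OAS1 (-2.95), IFI44 (-2.91), IFIT3 (-2.84), XAF1 (-2.8) and EPSTI1 (-2.8). Of the RNA sensors, IFIH1 (MDA5; -1.44) and RIGI (RIG-I; -0.51) fell. The call of RIGI (limma adjusted p = 0.046) was lost without any single array other than L428+MAT replicate 2, and also after array medians were subtracted or values quantile-normalized. IRF9, a DNA-binding factor of the interferon response, fell by 2.12. The 5 members that did not pass were OASL (0.11), ISG15 (-0.59, which passed without L428-PAX5+MAT replicate 1 or L428+MAT replicate 3 and in the fit blocked on the replicate number), IRF1 (0.05), IRF7 (-0.28) and LGALS3BP (0.28).

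The list means of the groups without the drugs lay closer together. MX1 averaged 7.06 in L428-PAX5+MAT and 10.94 in L428+MAT, and 7.78 in L428-PAX5+M and 8.35 in L428+M. The mean of the whole list was 7.86 in L428-PAX5+MAT and 9.59 in L428+MAT, and it was 8.27 in L428-PAX5+M and 8.35 in L428+M. With mifepristone alone, 7 of the 37 members were higher and 6 lower in the derivative, with a median of -0.22. Among all genes 9.72% were higher and 6.55% lower there. The test of the difference between both comparisons passed for 28 of the 37 members downward and for 0 upward, with 1 upward at an unadjusted limma p under 0.05. It passed for 10.6% of all genes downward and 5.64% upward. PARP9 and TRIM22 were among members with opposite signs, at 0.87 and 1.28 with mifepristone alone and -2.2 and -1.88 with the drugs.

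**Figure D2:**
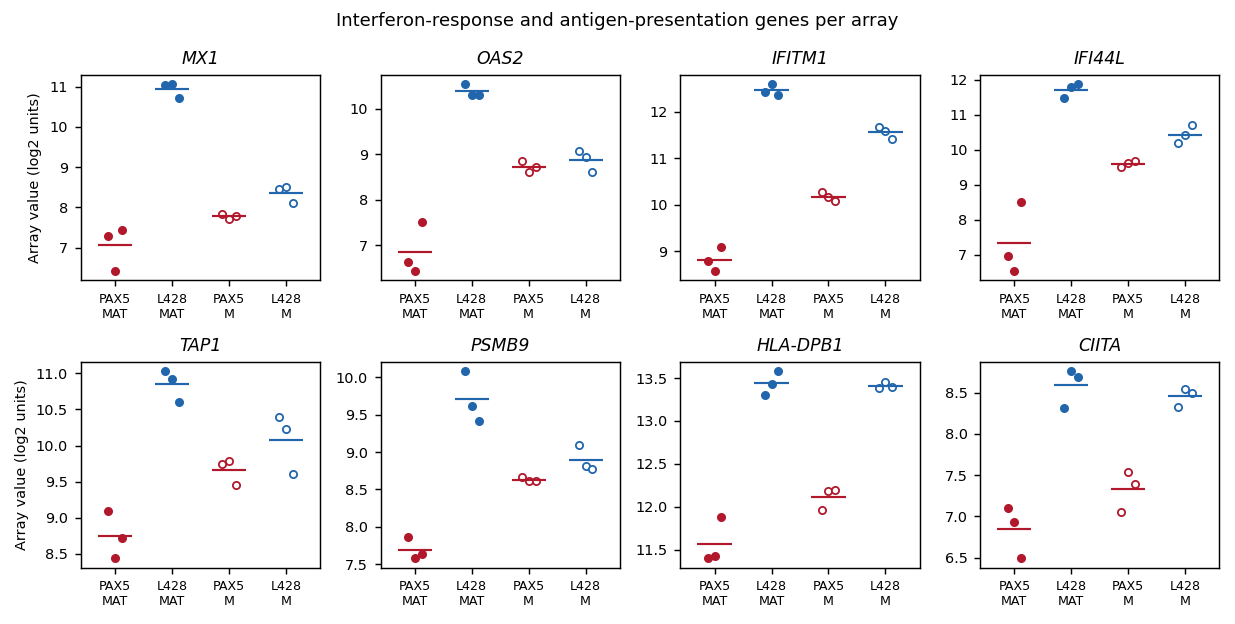
Log2 values per array (points) and group means (lines) of 4 interferon-response genes (top) and 4 antigen-presentation genes (bottom) in L428-PAX5+MAT, L428+MAT, L428-PAX5+M and L428+M, with red for L428-PAX5, blue for L428, filled points with the drugs and open points without. For MX1 the means are 7.06, 10.94, 7.78 and 8.35, and the lines with mifepristone alone lie closer together than with the drugs, while HLA-DPB1 is also separated without the drugs.

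The interferon-stimulated response element, the site of the IRF9-STAT complex, was looked for as GAAANNGAAA (TTTCNNTTTC on the other strand) after the fall of these genes was seen. It occurs in the windows of 20 of 30 interferon-response genes that had one (66.7%), in 18 of the 27 of them that fell, and in 3.04% of all windows. Among all genes it was in 4.31% of windows of those that fell and 2.81% of those that rose. The windows of MX1 and IFITM1 are shown because they carry the element close to the start of the gene, in capitals.
MX1 (chr21:41420308-41420607, plus strand): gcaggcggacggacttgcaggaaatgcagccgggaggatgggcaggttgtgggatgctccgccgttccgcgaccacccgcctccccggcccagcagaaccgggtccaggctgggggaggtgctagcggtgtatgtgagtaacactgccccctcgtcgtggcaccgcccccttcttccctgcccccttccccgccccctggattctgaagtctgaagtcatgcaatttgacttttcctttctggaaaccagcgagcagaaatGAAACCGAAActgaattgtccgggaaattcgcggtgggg
IFITM1 (chr11:313790-314089, plus strand): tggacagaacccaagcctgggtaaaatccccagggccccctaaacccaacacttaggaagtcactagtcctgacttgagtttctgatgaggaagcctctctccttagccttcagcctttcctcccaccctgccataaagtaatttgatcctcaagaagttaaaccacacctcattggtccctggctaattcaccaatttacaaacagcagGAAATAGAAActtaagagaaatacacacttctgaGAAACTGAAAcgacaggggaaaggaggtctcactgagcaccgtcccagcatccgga
MX1 carries 1 match, just after the start of the gene, and IFITM1 carries 2, of which 1 lies before the start and 1 spans it. A match is a description of the letters and not a measured binding site.

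Antigen-presentation genes were lower as well. HLA class II molecules show peptides to CD4 T cells and depend on the coactivator CIITA; 11 of 13 measured members were lower (84.6%) and 0 were higher, also at an unadjusted limma p under 0.05, with a median of -1.29. CIITA had 7.1, 6.93 and 6.49 in L428-PAX5+MAT, against 8.31, 8.76 and 8.69 in L428+MAT (-1.75 ± 0.18, adjusted p = 9.52e-07). HLA-DPB1 had 11.4, 11.43 and 11.88 in L428-PAX5+MAT, against 13.3, 13.43 and 13.58 in L428+MAT (-1.86 ± 0.14). HLA-DMB, which loads peptides, had 9.19, 9.17 and 9.18 in L428-PAX5+MAT, against 11.09, 10.88 and 10.73 in L428+MAT (-1.72 ± 0.2), and HLA-DOA, its modulator, differed by -1.91 ± 0.13. The groups did not overlap for any of these genes. RFX5, a subunit of the factor that binds class II promoters, fell by 1.45, while its partners RFXAP (0.14) and RFXANK (-0.09) did not pass. With mifepristone alone 9 of the 13 class II members were also lower, against 6.55% of all genes, with a list median of -0.98. The test of the difference between the comparisons passed downward for 2 of the 13, against 10.6% of all genes. CD74, HLA-DRA, HLA-DRB1 and HLA-DQA2 were not analysed here, and members of this family may share signal.

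For HLA class I and antigen processing, 9 of 12 measured members were lower (75%) and 0 were higher, also at an unadjusted limma p under 0.05, with a median of -1.13. PSMB8 and PSMB9, subunits of the immunoproteasome, differed by -2.19 ± 0.24 and -2.01 ± 0.16. TAP1, which carries peptides into the endoplasmic reticulum, had 9.1, 8.44 and 8.72 in L428-PAX5+MAT, against 11.03, 10.92 and 10.6 in L428+MAT (-2.1 ± 0.21). ERAP1, which trims those peptides, had 8.34, 7.34 and 8.03 in L428-PAX5+MAT, against 10.27, 9.78 and 9.87 in L428+MAT (-2.07 ± 0.21). B2M, the light chain of class I molecules, fell by 1.10. With mifepristone alone 1 member was lower and 1 was higher, against 6.55% and 9.72% of all genes. The test of the difference between the comparisons passed for 8 of the 12, all downward, against 10.6% of all genes.

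No measured gene of the B-cell surface passed as higher. Of 24 measured genes of the B-cell receptor and surface, 0 were higher, 2 at an unadjusted limma p under 0.05. Lower members numbered 5 (20.8%), and the list median was -0.07. Among all genes 14.3% were higher and 17.7% lower. The count of higher members was 1 without L428-PAX5+MAT replicate 2 and 2 in the fit blocked on the replicate number. CD79A, a signalling chain of the receptor, had 6.3, 6.53 and 6.39 in L428-PAX5+MAT, against 5.96, 5.96 and 6.13 in L428+MAT (0.39 ± 0.16, adjusted p = 0.0814), and the groups did not overlap. It passed with the replicate number as a block or with array weights. Its means were 12.3 in Raji and 11.93 in Namalwa. MS4A1 (CD20) had 4.65, 4.56 and 4.71 in L428-PAX5+MAT, against 4.36, 4.61 and 5.38 in L428+MAT, and CD22 had 6.18, 6.25 and 5.72 in L428-PAX5+MAT, against 5.91, 5.73 and 5.9 in L428+MAT. CD79B (-0.2), BLNK (0.23), POU2AF1 (-0.15), POU2F2 (0.15) and the complement receptor CR2 (-0.07) did not pass either. The members that fell were FCER2 (CD23), with 6.55, 6.78 and 7.01 in L428-PAX5+MAT, against 9.18, 9.41 and 9.01 in L428+MAT, CD37 (-1.21), CD52 (-1.02), CD40 (-0.66) and CD72 (-0.48). CD40 did not pass without L428-PAX5+MAT replicate 3.

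Genes that carry signals of the B-cell receptor were lower in 11 of 22 cases (50%) and higher in 1, SWAP70 (0.46 ± 0.16). The median was -0.42. RASGRP3, which activates RAS, had 7.28, 6.33 and 8.03 in L428-PAX5+MAT, against 10.6, 10.66 and 10.83 in L428+MAT (-3.48 ± 0.27). DAPP1, an adaptor, differed by -2.81 ± 0.25, INPP5D, the phosphatase SHIP1, by -2.14 ± 0.18, and LYN, a receptor-proximal kinase, by -1.48 ± 0.2. SWAP70 did not pass without L428-PAX5+MAT replicate 1 or L428+MAT replicate 1 or 2, and the count of higher members was 2 without L428+MAT replicate 1 or after either rescaling of the arrays, and 3 without L428-PAX5+MAT replicate 3 or with the replicate number as a block.

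B-cell transcription factors were lower in 11 of 21 cases (52.4%) and higher in 1, IRF8 (1.05 ± 0.28), with a median of -0.57. IKZF1 (Ikaros) had 9.17, 8.29 and 10.01 in L428-PAX5+MAT, against 11.2, 11.02 and 11.07 in L428+MAT (-1.94 ± 0.27), TCF4 (E2-2) had 9.61, 8.82 and 10.65 in L428-PAX5+MAT, against 11.66, 11.8 and 12.04 in L428+MAT (-2.14 ± 0.28), and MEF2C had 10.17, 9.94 and 10.14 in L428-PAX5+MAT, against 11.82, 11.97 and 12.03 in L428+MAT (-1.85 ± 0.12). Replicate 2 was the lowest array of the derivative for each. ZEB2 differed by -1.63 ± 0.24. BCL6, the repressor that germinal-centre B cells depend on, had 9.58, 10.11 and 9.61 in L428-PAX5+MAT, against 10.0, 10.28 and 10.05 in L428+MAT and did not pass (-0.34 ± 0.16, adjusted p = 0.123), except without L428-PAX5+MAT replicate 2 or with array weights. Its means were 7.87 in L428-PAX5+M and 9.86 in L428+M, a difference of -1.99, and the test of the difference between the comparisons passed (1.65).

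Among 20 measured genes that PAX5 is reported to activate, 3 were higher (15%) and 9 lower (45%), with a median of -0.17. The 3 that rose were NEDD9, a focal adhesion adaptor, with 8.19, 8.89 and 7.65 in L428-PAX5+MAT, against 6.42, 6.37 and 6.49 in L428+MAT (1.82 ± 0.21), ID3, an inhibitor of E proteins, with 8.1, 9.07 and 7.9 in L428-PAX5+MAT, against 7.0, 6.93 and 6.27 in L428+MAT (1.62 ± 0.28), and IRF8. With the replicate number as a block 6 were higher, and with quantile-normalized values 5. Besides FCER2 and CIITA, IKZF3 (Aiolos; -1.38) and PLEKHA2 (-1.28) fell. Among 16 measured genes that PAX5 is reported to repress, 2 were higher, CSF1R and NOTCH1 (0.84 ± 0.26), and 6 were lower (37.5%), with a median of -0.11. NOTCH1 did not pass without L428-PAX5+MAT replicate 1 or 2 or L428+MAT replicate 2 or 3. The falls included IL2RB, a chain of the interleukin 2 receptor, with 7.26, 7.01 and 7.08 in L428-PAX5+MAT, against 9.86, 9.65 and 9.34 in L428+MAT, EMB, embigin, at -2.68 ± 0.27, and ITGAL, an integrin chain of leukocytes, at -1.72 ± 0.16.

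Germinal-centre genes were lower in 7 of 16 cases (43.8%, against 17.7% of all genes) and higher in 1, ELL3 (0.61 ± 0.15). The median was -0.30. GCSAM had 7.92, 7.63 and 8.0 in L428-PAX5+MAT, against 10.01, 10.18 and 9.91 in L428+MAT (-2.18 ± 0.17), KLHL6 differed by -1.99 ± 0.18, RGS13 by -1.76 ± 0.31 and the chemokine receptor CXCR4 by -1.34 ± 0.16. The higher count was 3 without L428-PAX5+MAT replicate 2, and 2 without L428+MAT replicate 3 or with the replicate number as a block. Plasma-cell genes were lower in 11 of 20 cases (55%, against 17.7% of all genes) and higher in 1, CRELD2 (0.84 ± 0.2). The median was -0.71. XBP1, the factor of secretory cells, had 10.36, 9.67 and 10.21 in L428-PAX5+MAT, against 11.43, 11.01 and 11.27 in L428+MAT (-1.16 ± 0.18). PRDM1 (Blimp-1) differed by -0.64 ± 0.16 and IRF4, a factor of B and plasma cells, by -0.49 ± 0.16 (adjusted p = 0.0241), which did not hold without L428-PAX5+MAT replicate 2 or L428+MAT replicate 1 or 2. ELL2 (-2.07), PIM2 (-1.65), CAV1 (-1.64) and EDEM1 (-1.55) fell.

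**Figure D3:**
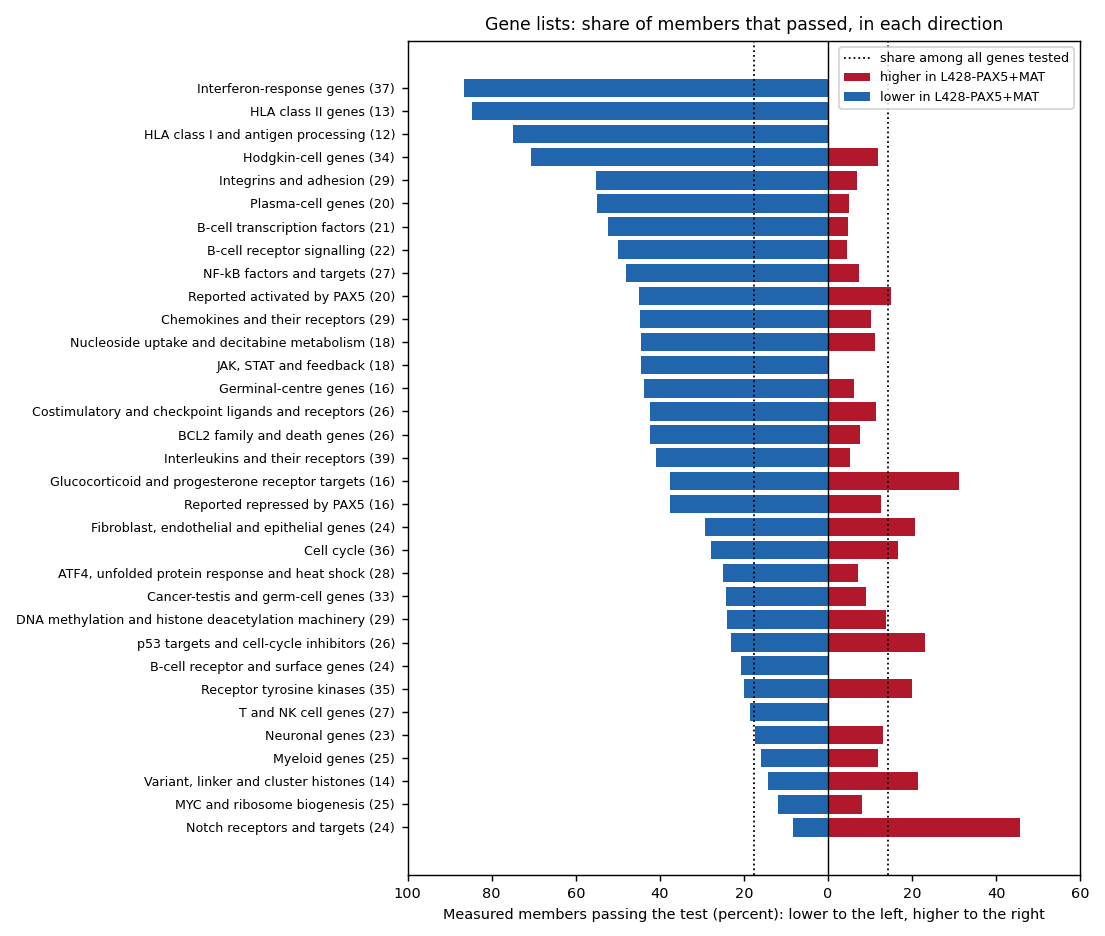
Percent of measured members of each of 33 gene lists that were higher (red, to the right) or lower (blue, to the left) in L428-PAX5+MAT than in L428+MAT, with the number measured in brackets and dotted lines at the shares among all genes, 14.3% higher and 17.7% lower. Interferon-response, HLA and Hodgkin-cell lists reach furthest to the left, and the Notch list reaches furthest to the right, with 45.8% higher.

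Genes that mark Hodgkin cells were lower in 24 of 34 cases (70.6%) and higher in 4, with a median of -1.43. TNFRSF8 (CD30), the diagnostic surface receptor, had 8.17, 7.93 and 7.84 in L428-PAX5+MAT, against 10.3, 10.06 and 9.7 in L428+MAT (-2.04 ± 0.21, adjusted p = 5.74e-07). MSC, an E-protein antagonist also called ABF1, had 9.48, 8.86 and 9.72 in L428-PAX5+MAT, against 11.67, 11.83 and 11.2 in L428+MAT (-2.21 ± 0.24). CD86, a T-cell costimulator, had 8.68, 8.31 and 8.8 in L428-PAX5+MAT, against 11.54, 11.45 and 11.84 in L428+MAT (-3.01 ± 0.2), and CD200, an inhibitory ligand, had 7.64, 7.44 and 8.03 in L428-PAX5+MAT, against 10.87, 10.54 and 10.89 in L428+MAT (-3.06 ± 0.22). BATF, an AP-1 factor (-1.97), and GATA3 (-1.64) fell. The rises were CSF1R, NOTCH1, CD274 (PD-L1; 1.05 ± 0.23) and TNFRSF9 (4-1BB; 0.62 ± 0.18). TNFRSF9 did not pass without L428-PAX5+MAT replicate 1, and the count of higher members was then 2.

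Cytokines and chemokines moved the same way in most cases that passed. Of 39 interleukins and receptors, 16 were lower (41%) and 2 higher, with a median of -0.20. IL6 had 6.3, 6.33 and 7.41 in L428-PAX5+MAT, against 9.48, 9.24 and 9.32 in L428+MAT (-2.67 ± 0.23). IL5 had 3.94, 4.04 and 4.28 in L428-PAX5+MAT, against 7.23, 5.81 and 7.36 in L428+MAT (-2.71 ± 0.41), near the low end of the scale in the derivative. IL4R differed by -2.51 ± 0.15. IL15 rose by 1.03. IL31, an itch cytokine, had 5.7, 5.72 and 7.23 in L428-PAX5+MAT, against 5.32, 5.43 and 5.31 in L428+MAT; replicate 3 of the derivative stood apart, and the rise of 0.86 ± 0.29 (adjusted p = 0.0308) did not pass without it or without any 1 array of L428+MAT. Without that replicate the difference was 0.35. The higher count was 1 without L428-PAX5+MAT replicate 3 or L428+MAT replicate 1 or 3, or with quantile-normalized values. Of 29 chemokines and receptors, 13 were lower (44.8%) and 3 higher, with a median of -0.40. CCL22, a chemokine that draws regulatory T cells, had 6.72, 6.98 and 6.37 in L428-PAX5+MAT, against 9.18, 9.3 and 9.14 in L428+MAT (-2.52 ± 0.17). CCL1 had 10.9, 9.71 and 11.88 in L428-PAX5+MAT, against 13.14, 13.19 and 13.4 in L428+MAT (-2.41 ± 0.33), with a spread of over 2 log2 units in the derivative. CX3CL1 (-2.34) and the receptor GPR183 (-3.44) fell. CCL20 had 8.33, 9.17 and 8.52 in L428-PAX5+MAT, against 6.8, 6.36 and 6.87 in L428+MAT (1.99 ± 0.22), the largest rise of the list. The higher count was 1 without L428-PAX5+MAT replicate 3 or L428+MAT replicate 1 or 2, and 5 in the fit blocked on the replicate number.

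Among 18 JAK kinases, STAT factors and their inhibitors, 8 were lower (44.4%, against 17.7% of all genes), with a median of -0.37. Higher members numbered 0, also at an unadjusted limma p under 0.05, against 14.3% of all genes by the adjusted p. STAT5A had 9.22, 8.8 and 9.13 in L428-PAX5+MAT, against 11.48, 11.28 and 10.93 in L428+MAT (-2.18 ± 0.18). STAT6 had 8.95, 8.69 and 8.99 in L428-PAX5+MAT, against 11.13, 10.53 and 10.48 in L428+MAT (-1.84 ± 0.18), STAT4 differed by -1.83 ± 0.16 and STAT5B by -1.4 ± 0.15. The kinases JAK2 (-1.2) and JAK3 (-1.4) fell. CISH, a feedback inhibitor that STAT5 induces, fell by 1.48, whereas SOCS1 (-1.01, which passed with the replicate number as a block) and SOCS3 (-0.29) did not pass. NF-kB factors and targets were lower in 13 of 27 cases (48.1%, against 17.7% of all genes) and higher in 2, with a median of -0.73. BCL2L1 (BCL-XL), a survival factor, had 10.17, 9.04 and 10.18 in L428-PAX5+MAT, against 11.74, 12.02 and 11.68 in L428+MAT (-2.02 ± 0.25). CFLAR (FLIP), an inhibitor of caspase 8, had 9.44, 8.21 and 10.15 in L428-PAX5+MAT, against 11.15, 11.22 and 11.13 in L428+MAT (-1.9 ± 0.32), and PLAU (-1.91) and TNIP1 (-1.76) fell. SOD2 rose by 0.88 and REL, an NF-kB subunit, by 0.56. REL did not pass without L428-PAX5+MAT replicate 1 or 3 or L428+MAT replicate 1, and the higher count was 1 without either array numbered 1.

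Notch genes leaned the other way. Notch receptors are cut upon contact with a ligand and their freed part acts with RBPJ on genes of the HES and HEY families. Of 24 measured, 11 were higher (45.8%, against 14.3% of all genes) and 2 lower, with a median of 0.26. The target HES1 had 9.52, 9.63 and 9.53 in L428-PAX5+MAT, against 6.73, 6.84 and 6.52 in L428+MAT, a 7.28-fold rise (2.86 ± 0.15, adjusted p = 3.88e-10). HES1 was also higher by 2.91 with mifepristone alone. Of the 24 Notch genes, 2 were higher and 1 lower there, with a median of -0.01, against 9.72% and 6.55% of all genes. The test of the difference between the comparisons passed for 3 of them upward and 1 downward, against 5.64% and 10.6% of all genes. HEY2 had 9.47, 10.26 and 8.86 in L428-PAX5+MAT, against 7.45, 8.03 and 7.59 in L428+MAT (1.84 ± 0.34), HEY1 rose by 1.06, NRARP, a feedback regulator, by 1.57, and the glycosyltransferase LFNG by 1.29. The ligands DLL1 and DLL4 rose by 0.63 and 0.66. LFNG and DLL4 did not pass without L428-PAX5+MAT replicate 2. The coactivator MAML2 (-2.08) and RBPJ (-1.09) fell. The list mean was 7.40 to 7.95 on the arrays of L428-PAX5+MAT and 7.21 to 7.41 on those of L428+MAT, so the lowest array of the derivative lay below the highest of the parent. The count of 11 was 7 without L428-PAX5+MAT replicate 1, 6 without its replicate 2, and 7 without L428+MAT replicate 2.

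Adhesion molecules were lower in 16 of 29 cases (55.2%, against 17.7% of all genes) and higher in 2, with a median of -0.46. The higher count was 1 without L428+MAT replicate 2. CD44, a hyaluronan receptor, had 7.78, 7.86 and 7.86 in L428-PAX5+MAT, against 10.76, 10.61 and 10.65 in L428+MAT (-2.84 ± 0.13, adjusted p = 4.23e-11). CD99 had 6.51, 6.34 and 6.72 in L428-PAX5+MAT, against 8.84, 8.54 and 7.95 in L428+MAT (-1.92 ± 0.22), and ITGA4 differed by -1.66 ± 0.23. ICAM1, a ligand of leukocyte integrins, and CD58 fell (-1.36 and -1.54). Costimulatory and checkpoint molecules were lower in 11 of 26 cases (42.3%, against 17.7% of all genes) and higher in 3. The higher count was 5 with the replicate number as a block. CD80 had 9.53, 8.38 and 10.47 in L428-PAX5+MAT, against 10.93, 11.35 and 11.53 in L428+MAT (-1.81 ± 0.35), and CD70 differed by -1.75 ± 0.23. Of 35 receptor tyrosine kinases, 7 were higher and 7 lower (20% each, against 14.3% and 17.7% of all genes). Several of these kinases are known to be expressed by Hodgkin cells. EPHA3 had 8.03, 7.45 and 8.29 in L428-PAX5+MAT, against 5.66, 5.76 and 5.4 in L428+MAT (2.31 ± 0.19), and DDR2 (-1.6) and EPHB1 (-1.4) fell. MET had 11.06, 9.39 and 11.8 in L428-PAX5+MAT, against 11.82, 11.75 and 11.9 in L428+MAT. Replicates 1 and 2 of the derivative lay below all parent arrays, replicate 2 the most, and replicate 3 lay within their range. The fall of 1.08 (limma adjusted p = 0.0343) did not pass without replicate 2 of the derivative, at -0.4, nor without any 1 array of L428+MAT.

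Of 36 cell-cycle genes, 6 were higher (16.7%) and 10 lower (27.8%), against 14.3% and 17.7% of all genes and 16.6% and 28.1% of the 9209 brighter genes. The S-phase cyclins CCNE1 and CCNE2 rose by 1.28 and 1.7, and CDC6, a replication licensing factor, by 1.26. TYMS (thymidylate synthase) had 9.55, 9.17 and 9.67 in L428-PAX5+MAT, against 11.95, 11.63 and 11.45 in L428+MAT (-2.21 ± 0.19), and RRM2, a subunit of ribonucleotide reductase (-1.09), and FOXM1 (-1.07) fell. The lower count was 6 without L428-PAX5+MAT replicate 2. MYC had 10.58, 10.23 and 10.5 in L428-PAX5+MAT, against 10.74, 10.5 and 10.41 in L428+MAT and did not pass (-0.11 ± 0.15), and of 25 genes of MYC and ribosome biogenesis 2 were higher (8%) and 3 lower (12%). The higher count was 4 without L428+MAT replicate 1 and 6 with quantile-normalized values. ODC1, the first enzyme of polyamine synthesis, rose by 1.68. Of 26 p53 targets and inhibitors of the cycle, 6 were higher and 6 lower (23.1% each, against 14.3% and 17.7% of all genes). The split was 7 higher and 3 lower with quantile-normalized values. Leaving out 1 array gave 4 to 9 higher and 4 to 5 lower. FAS, a death receptor, had 8.82, 7.46 and 9.85 in L428-PAX5+MAT, against 11.38, 11.16 and 11.52 in L428+MAT (-2.64 ± 0.39), and CDKN1B (p27) had 8.88, 7.93 and 8.91 in L428-PAX5+MAT, against 10.89, 10.62 and 9.96 in L428+MAT (-1.92 ± 0.25), while CDKN2B (p15) rose by 1.29 and CDKN1A (p21) did not pass (0.13). In the BCL2 family and death genes, 11 of 26 were lower (42.3%, against 17.7% of all genes) and 2 higher. The higher count was 4 without L428-PAX5+MAT replicate 3, in the fit blocked on the replicate number, or after either rescaling of the arrays. BCL2 had 7.13, 6.3 and 7.12 in L428-PAX5+MAT, against 8.37, 8.29 and 8.23 in L428+MAT (-1.44 ± 0.19), and BCL2L11 (BIM), which promotes death, had 9.93, 10.0 and 9.94 in L428-PAX5+MAT, against 8.03, 8.51 and 8.5 in L428+MAT (1.61 ± 0.16). APAF1 rose by 1.03. Of 28 genes of ATF4, the unfolded protein response and heat shock, 7 were lower (25%) and 2 higher (7.14%). The shares were 17.7% and 14.3% among all genes, and 28.1% and 16.6% among the 9209 brighter ones. ATF5 (-2.18) and TRIB3 (-1.44) fell. Those counts were 4 lower without L428+MAT replicate 1, 4 higher without L428-PAX5+MAT replicate 3 or with quantile-normalized values, and 1 higher without L428-PAX5+MAT replicate 1 or L428+MAT replicate 2.

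Of 29 genes of DNA methylation and histone deacetylation, on which the drugs act, 4 were higher (13.8%) and 7 lower (24.1%), near the shares among all genes. DNMT3B, a de novo methyltransferase, had 7.6, 7.77 and 7.12 in L428-PAX5+MAT, against 6.36, 6.42 and 5.7 in L428+MAT (1.34 ± 0.21), and TET2 (-1.37) and the methyl-CpG binding protein MBD2 (-1.34) fell. The higher count was 1 without L428-PAX5+MAT replicate 2 and 7 with quantile-normalized values. Of 18 genes of nucleoside uptake and decitabine metabolism, 8 were lower (44.4%) and 2 higher, or 1 higher without any single array but L428-PAX5+MAT replicate 3. DCK, the kinase that activates 5-aza-dC, had 9.23, 7.69 and 8.58 in L428-PAX5+MAT, against 10.32, 9.65 and 9.6 in L428+MAT (-1.35 ± 0.31, adjusted p = 0.002), with replicate 2 of the derivative the lowest. DCTD, a deaminase of the same nucleotides, had 10.16, 9.41 and 10.3 in L428-PAX5+MAT, against 11.7, 11.43 and 11.37 in L428+MAT (-1.54 ± 0.18). SLC28A3, a nucleoside transporter, rose by 0.91. The part of these differences in the response to the drugs was not tested. Of 14 variant, linker and cluster histone genes, 3 were higher (21.4%, against 14.3% of all genes), among them H4C8 (1.37 ± 0.16), and 2 lower (14.3%, against 17.7%). These counts were 5 higher without L428-PAX5+MAT replicate 3, and 1 lower without its replicate 2, without L428+MAT replicate 1 or 2, or with quantile-normalized values.

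Germline genes, which 5-aza-dC is known to open, were on balance not higher in the derivative. Of 33 cancer-testis and germ-cell genes, 3 were higher (9.09%) and 8 lower (24.2%), against 14.3% and 17.7% of all genes. Leaving out 1 array gave 2 to 4 higher and 7 to 10 lower. HORMAD1 had 6.42, 5.45 and 7.41 in L428-PAX5+MAT, against 9.2, 8.29 and 8.64 in L428+MAT (-2.29 ± 0.35) and averaged 4.34 in L428-PAX5+M and 4.12 in L428+M. DAZL had 8.31, 8.21 and 7.68 in L428-PAX5+MAT, against 10.79, 9.63 and 9.19 in L428+MAT (-1.8 ± 0.28). CCNA1, the germ-cell cyclin A1, had 10.33, 10.6 and 9.42 in L428-PAX5+MAT, against 8.35, 8.14 and 8.25 in L428+MAT (1.87 ± 0.22), the largest rise. Targets of the glucocorticoid and progesterone receptors, which mifepristone blocks, were higher in 5 of 16 cases (31.2%) and lower in 6 (37.5%). The shares among all genes were 14.3% and 17.7%. The receptor NR3C1 had 9.42, 7.73 and 9.74 in L428-PAX5+MAT, against 11.07, 10.9 and 10.83 in L428+MAT (-1.97 ± 0.32), TSC22D3 fell by 1.23, and ERRFI1 had 8.78, 9.86 and 7.89 in L428-PAX5+MAT, against 6.84, 6.2 and 5.98 in L428+MAT (2.5 ± 0.32).

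T and NK cell genes were lower in 5 of 27 cases (18.5%), close to the 17.7% of all genes. With any 1 array left out the lower count was 4. Higher members numbered 0, but 1 at an unadjusted limma p under 0.05 and 1 without L428-PAX5+MAT replicate 3. The list mean was 5.86 to 5.89 in L428-PAX5+MAT and 5.95 to 6.15 in L428+MAT. Myeloid genes were higher in 3 of 25 cases (12%) and lower in 4 (16%), near the 14.3% and 17.7% of all genes. The lower count was 3 with any 1 array left out. The rises were CSF1R, CEBPA (0.91 ± 0.23) and CD14 (0.45 ± 0.16, lost without L428-PAX5+MAT replicate 1 or 2 or L428+MAT replicate 1 or 3). ITGAX (-1.21 ± 0.19) was among the falls. The list means were 6.12 to 6.29 in L428-PAX5+MAT and 6.17 to 6.19 in L428+MAT. Neuronal genes were higher in 3 of 23 cases (13%) and lower in 4 (17.4%), near the same shares of all genes. NEFM, a neurofilament, had 7.42, 7.65 and 7.34 in L428-PAX5+MAT, against 5.47, 5.66 and 6.05 in L428+MAT (1.74 ± 0.24), and ELAVL3 rose by 1.68 ± 0.24. The neuronal counts were 7 higher without L428-PAX5+MAT replicate 3, 5 higher without L428+MAT replicate 1 or with the replicate number as a block, and 2 lower without L428-PAX5+MAT replicate 1 or 2 and 1 without L428+MAT replicate 3. Fibroblast, endothelial and epithelial genes were higher in 5 of 24 cases (20.8%) and lower in 7 (29.2%), against 14.3% and 17.7% of all genes. ACTA2, a smooth muscle actin, differed by -2.68 ± 0.25. PECAM1, an endothelial and leukocyte adhesion molecule, had 6.91, 6.45 and 7.17 in L428-PAX5+MAT, against 9.46, 9.25 and 9.69 in L428+MAT (-2.62 ± 0.17), and VIM (vimentin) fell by 1.31. The higher count was 2 without L428-PAX5+MAT replicate 1 or 2 and 3 without L428+MAT replicate 1.

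The same lines given mifepristone alone share no arrays with this comparison and show which differences were there without the drugs. In L428-PAX5+M against L428+M, 1790 genes were higher (9.72%) and 1206 lower (6.55%). Of the 2642 genes higher with the drugs, 776 (29.4%) were also higher without them, 37 were lower and 1829 did not pass. Of the 3256 lower with the drugs, 823 (25.3%) were also lower without them, 136 were higher and 2297 did not pass. Across all genes the differences correlated with r = 0.492, a description over genes that are not independent, from the same pair of lines. Of the 2097 genes that differed by at least 2-fold with the drugs, 1668 (79.5%) had the same sign without them.

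The difference of the lines was itself larger or smaller with the drugs for 2990 genes, with 1039 more positive (5.64%) and 1951 more negative (10.6%). With quantile-normalized values the counts were 1409 and 1483, so that the share of positive ones was 48.7% in place of 34.7%; with the replicate number as a block they were 1717 and 3013. PAX5 (5.23 without the drugs), EVI2B (-5.73), CYP19A1 (-4.84), TSPAN8 (-4.6), HES1 (2.91), C1QTNF9B (3.67) and CSF1R (2.69) differed between the lines without the drugs as well, and the test of a difference between the comparisons did not pass for them. UTS2B, GPR50, CRISPLD2, SNAI2, ZNF280A and RFPL4A lay between -0.22 and 0.22 without the drugs and did not pass there. UTS2B averaged 4.01 in L428-PAX5+M and 4.04 in L428+M, and its difference was larger with the drugs by 4.31. CYP1B1, an oxidase of oestrogens and aryl hydrocarbons, turned round: it had 9.24, 7.47 and 9.43 in L428-PAX5+MAT, against 10.89, 10.61 and 10.2 in L428+MAT (-1.85 ± 0.36), but was higher in the derivative by 2.56 without them, a change of -4.41. IL31 was higher by 4.62 without the drugs and by 0.86 with them, a change of -3.76, and AVPR1A, a vasopressin receptor, changed by -3.47. The difference of AVPR1A with the drugs (-0.78 ± 0.26) did not pass without L428-PAX5+MAT replicate 2 or L428+MAT replicate 1.

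**Figure D4:**
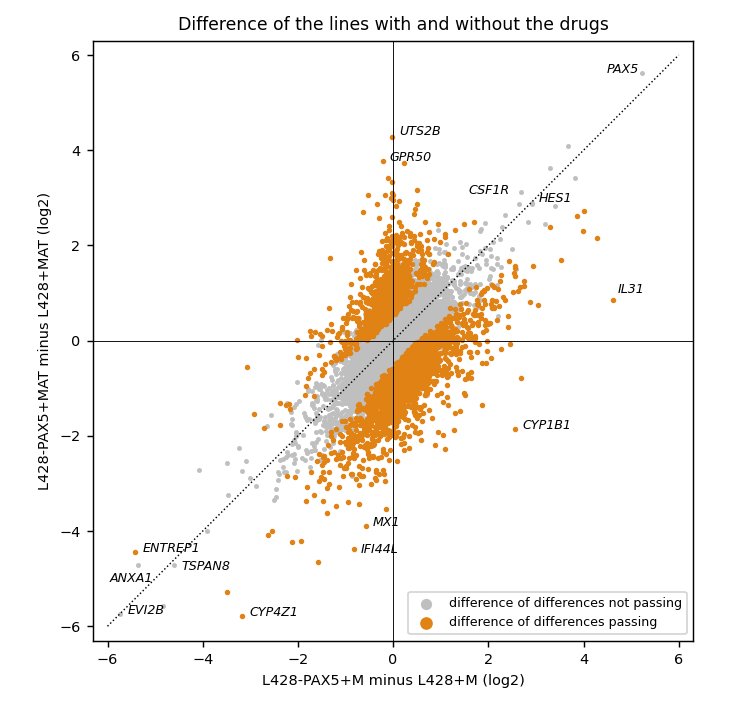
Difference of the lines with the drugs (vertical, L428-PAX5+MAT minus L428+MAT, log2) against the difference with mifepristone alone (horizontal, L428-PAX5+M minus L428+M, log2), 1 point per gene, with the 2990 genes whose differences differ in orange and the dotted line marking equal differences. PAX5, HES1 and EVI2B lie close to the line, UTS2B and GPR50 lie near 0 on the horizontal axis, and IL31 and CYP1B1 lie far to its right.

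Raji and Namalwa give sets of genes whose fold differences were taken from arrays without the drugs. The tests behind these sets used the spread pooled over all 18 arrays, those with the drugs included. The set of genes at least 2-fold higher in both Burkitt lines than in L428+M, each with a passing test, had 781 members. Of these, 226 were higher in L428-PAX5+MAT than in L428+MAT (28.9%, against 14.3% of all genes), 100 of them by at least 2-fold, and 130 were lower (16.6%, against 17.7%), with a median of 0.11. The mean of L428-PAX5+MAT reached the lower of the Burkitt means for 66 of the 781 genes and that of L428+MAT for 6. The set was chosen for a distance from L428+M, the same line as L428+MAT. The count for L428+MAT was thus largely fixed by that choice and is no measure to set the other against. Besides PAX5 and HES1, the largest rises were ZNF486, with 9.83, 10.59 and 9.34 in L428-PAX5+MAT, against 7.7, 7.87 and 7.23 in L428+MAT (2.32 ± 0.26), ZNF117, WDR19 and VAMP1, at 2.13 to 2.30. Other members went further from the Burkitt lines: PTPRC (CD45), the phosphatase of all leukocytes, had 4.26, 4.1 and 4.53 in L428-PAX5+MAT, against 7.35, 6.93 and 6.8 in L428+MAT (-2.73 ± 0.15), with 10.39 in Raji and 10.28 in Namalwa. ST6GAL1, which makes the ligand of CD22, had 6.83, 7.24 and 7.72 in L428-PAX5+MAT, against 10.04, 9.76 and 9.92 in L428+MAT (-2.64 ± 0.25), with 12.58 in Raji and 12.38 in Namalwa.

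The set at least 2-fold lower in both Burkitt lines than in L428+M had 1049 members. Of these, 630 were lower in L428-PAX5+MAT (60.1%, against 17.7% of all genes), 442 of them by at least 2-fold, and 65 were higher (6.2%), with a median of -0.80. Among the 9209 genes with a mean above the median of all genes, 28.1% were lower and 16.6% higher, and 59.9% of the 765 members of the set among them were lower. The mean of L428-PAX5+MAT had come down to the higher of the Burkitt means for 102 members and that of L428+MAT for 0. Here too the count for L428+MAT was largely fixed by the choice of the set, which used the same line as L428+M. CYP4Z1, CYP19A1, TSPAN8, ANXA1 and NDST4 were among the largest falls of the set. Against the direction of the set, FN1 (fibronectin) had 12.13, 11.29 and 11.8 in L428-PAX5+MAT, against 10.04, 9.76 and 10.08 in L428+MAT (1.78 ± 0.22), CA2 (carbonic anhydrase 2) had 11.78, 11.28 and 11.2 in L428-PAX5+MAT, against 9.28, 8.79 and 8.83 in L428+MAT (2.45 ± 0.29), and ENPP2 (autotaxin) had 12.01, 12.28 and 11.62 in L428-PAX5+MAT, against 10.27, 10.07 and 10.38 in L428+MAT (1.73 ± 0.23). Raji and Namalwa differ from L428 by origin and were not given mifepristone, so membership in these sets is not a measure of B-cell identity alone.

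**Figure D5:**
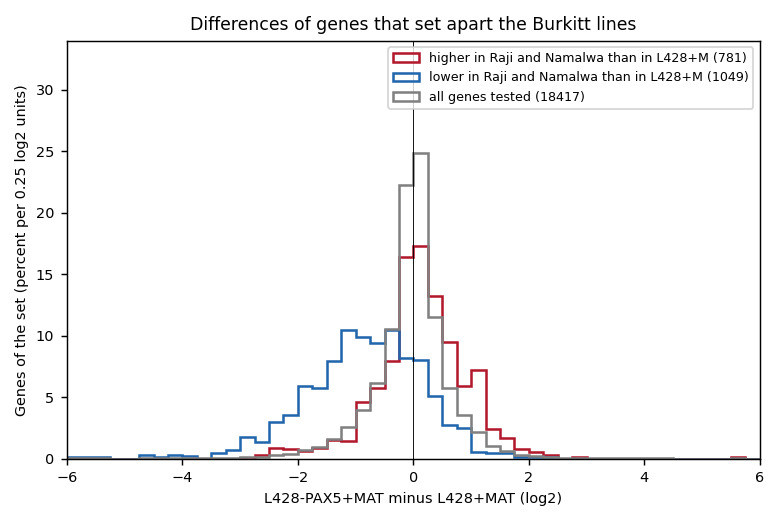
Distribution of the difference L428-PAX5+MAT minus L428+MAT (log2, in bins of 0.25) as percent of each set, for the 781 genes higher in both Burkitt lines (red), the 1049 genes lower in both (blue) and all 18417 genes (grey). The blue set is shifted to the left, with a median of -0.80, and the red set has a median of 0.11.

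Calls were unevenly spread over the chromosomes, as placed by RefSeq. Chromosome 9, which carries PAX5, had 22.3% of its 732 genes higher and 9.29% lower, and with mifepristone alone 17.8% higher and 3.83% lower. Chromosome 19 had 17.6% of 1308 genes higher and 8.49% lower, against 6.35% and 2.68% with mifepristone alone. Chromosome X had 6.48% of 694 genes higher and 27.2% lower, against 3.31% and 11.7% with mifepristone alone. Copy number of the lines was not measured here.

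Neighbouring genes with the same call formed a few long runs. On chromosome 19, 10 zinc finger genes in a row, from ZNF506 to ZNF85, were higher, with ZNF486, ZNF90 (2.11 ± 0.27) and ZNF682 (1.8 ± 0.15) the most. ZNF506 did not pass without L428-PAX5+MAT replicate 1 or L428+MAT replicate 3, nor ZNF85 without any single array other than L428+MAT replicate 3, so that the run was then shorter. On chromosome 6, 10 genes in a row from HLA-DRB5 to HLA-DMA, TAP1, TAP2, PSMB8 and PSMB9 among them, were lower. On chromosome 22, the cytidine deaminase genes APOBEC3B, APOBEC3C, APOBEC3D, APOBEC3F, APOBEC3G and APOBEC3H, which restrict viruses and transposable elements, were lower (differences between -1.43 and -0.97), together with their neighbours CBX6 and CBX7. APOBEC3B, the brightest, had 12.15, 11.33 and 12.37 in L428-PAX5+MAT, against 13.32, 13.28 and 13.26 in L428+MAT (-1.33 ± 0.2). On chromosome 16, the 8 genes from SLC12A3 to ARL2BP were lower, NLRC5, the coactivator of HLA class I genes, among them (-0.82 ± 0.13). ARL2BP, the end of that run, differed by -0.44 ± 0.15 and was lost without L428-PAX5+MAT replicate 1 or 2 or L428+MAT replicate 1 or 3, and its difference was -0.04 as the mean of its probe sets. Members of the zinc finger and APOBEC3 families have similar sequences and may share signal.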

How the data were processed

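Total RNA of 18 samples was measured on Affymetrix whole-transcript arrays. The deposited values are log2 signals that the authors made with RMA in Partek, per the submitters' processing notes, whose versions are not given in the sources used here, nor is a detection call. The file held 33297 probe sets, of which 19460 had 1 gene symbol in the platform annotation, 1754 had several and 12083 were not listed. For the 769 genes with more than 1 probe set the brightest was kept, which gave 18417 genes. These were fitted with limma 3.58.1 in R 4.3.3 (lmFit and eBayes, 1 mean per group over all 18 arrays, two-sided), with Benjamini-Hochberg adjustment over all genes and 0.05 as the threshold. The procedure was tested on simulated data. Promoter windows and chromosomes came from RefSeq GRCh38.p14. Tables and plots were made with pandas 2.3.3 and matplotlib 3.10.9.

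Genes were named by rule: PAX5, the 15 largest non-overlapping rises and falls with a group mean above the median, up to 4 passing members each way of every list, a set of B-cell and Hodgkin genes, the 6 largest differences between comparisons and Burkitt-set members each way, and genes of the longest runs. A few list members beyond 4, and the APOBEC3 genes, were chosen after their values were seen. The gene lists and the comparison were chosen with earlier results of these data known. The replicate numbers come from the titles. Same-numbered arrays deviated together from their group means, with correlations of 0.312, 0.273 and 0.353 in the groups with the drugs and 0.515, 0.484 and 0.57 in those with mifepristone alone. The labels do not say what a shared number marks. The numbers may pair the samples, so the fit was repeated with the number as a block. Counts and p-values come from the fit without the block, except where the block is named. Other alternatives were array weights, an intensity trend, other scalings, a filter on dim genes, the mean of probe sets, fewer groups, and leaving out arrays.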

Additional observations from a re-analysis of the deposited data

Results flagged for a closer look

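The difference between the lines, L428-PAX5 minus L428, was itself different with the drugs and with mifepristone alone for 1039 genes upward and 1951 downward by the limma test of that difference (adjusted p under 0.05 over all genes). The values below are the difference with the drugs minus the difference with mifepristone alone, on the log2 scale, for the genes named above that passed it. Of the interferon-response genes, the change was negative for IFI44L (-3.54), OAS2 (-3.39), MX1 (-3.31), TRIM22 (-3.16), PARP9 (-3.07), OAS1 (-2.78), XAF1 (-2.61), SAMD9L (-2.32), IFITM1 (-2.25), IFIT3 (-2.2), IFI44 (-2.13), LGALS3BP (-2.13), IFIH1 (-2.0), EPSTI1 (-1.92), IRF1 (-1.67) and IRF9 (-1.0). Of the HLA class II genes, the change was negative for RFX5 (-1.42) and HLA-DOA (-0.6). Of the HLA class I and antigen-processing genes, the change was negative for ERAP1 (-1.94), PSMB8 (-1.77), PSMB9 (-1.74), TAP1 (-1.69), TAP2 (-1.62) and NLRC5 (-1.02). Of the Hodgkin-cell genes, the change was negative for CCL22 (-2.61), CFLAR (-1.89), CD80 (-1.83), BATF (-1.78), CD86 (-1.67), IL6 (-1.64), TNFRSF8 (-1.38), MSC (-1.36) and CD70 (-1.21). Of the remaining chemokines and receptors, the change was negative for GPR183 (-2.73), CX3CL1 (-1.82) and CCL1 (-1.63). For CCL20 (2.03) it was positive. Of the remaining interleukins and receptors, the change was negative for IL31 (-3.76) and IL4R (-1.12). Of the JAK and STAT genes, the change was negative for STAT5A (-2.35), STAT6 (-1.33), JAK3 (-0.98), STAT5B (-0.9) and JAK2 (-0.82). For STAT4 (0.88) it was positive. Of the remaining NF-kB genes, the change was negative for PLAU (-2.36), BCL2L1 (-2.22), ICAM1 (-1.68) and TNIP1 (-1.28). For SOD2 (1.25) it was positive. Of the B-cell, germinal-centre and plasma-cell genes, the change was negative for IKZF1 (-2.46), RASGRP3 (-2.3), EMB (-2.02), DAPP1 (-1.95), FCER2 (-1.94), CR2 (-1.87), TCF4 (-1.6), RGS13 (-1.45), XBP1 (-1.44), INPP5D (-1.29), LYN (-1.27), CD52 (-1.13), PLEKHA2 (-1.02), CAV1 (-0.9) and MEF2C (-0.65). For NEDD9 (1.73), BCL6 (1.65) and ELL3 (0.89) it was positive. Of the genes of the cell cycle, cell death and stress, the change was negative for FAS (-1.65), TRIB3 (-1.58), TYMS (-1.51), ATF5 (-1.3) and FOXM1 (-0.94). For CCNE2 (2.32), CDKN2B (1.44) and APAF1 (0.7) it was positive. Of the Notch, kinase, adhesion and costimulatory genes, the change was negative for MAML2 (-1.76), EPHA3 (-1.67), ITGA4 (-1.53), DDR2 (-1.52), CD58 (-1.42), EPHB1 (-1.4) and CD44 (-0.62). For DLL1 (0.84) and DLL4 (0.78) it was positive. Of the other genes named above, the change was negative for CYP1B1 (-4.41), AVPR1A (-3.47), NDST4 (-3.08), CYP4Z1 (-2.62), HORMAD1 (-2.51), CRLF2 (-2.28), SERPINB10 (-2.12), ST6GAL1 (-1.93), CYP4Z2P (-1.78), ACTA2 (-1.7), DAZL (-1.62), EDDM3B (-1.46), TVP23A (-1.45), SLC28A3 (-1.39), NR3C1 (-1.36), DCTD (-1.32), APOBEC3H (-1.21), APOBEC3C (-1.2), PECAM1 (-1.13), APOBEC3B (-1.12), MBD2 (-1.05) and APOBEC3D (-1.0). For UTS2B (4.31), GPR50 (3.99), REXO1L1P (3.58), SNAI2 (3.53), CRISPLD2 (3.52), ZNF280A (3.36), FLJ30679 (3.23), PGPEP1L (3.13), RFPL4A (3.06), ENPP2 (3.05), FMN1 (2.65), CCNA1 (2.55), ZNF486 (2.41), ERRFI1 (2.38), ZNF90 (2.27), VAMP1 (2.09), WDR19 (1.95), NEFM (1.94), H4C8 (1.87), ELAVL3 (1.66), ZNF682 (1.65), CEBPA (1.2) and ENTREP1 (0.99) it was positive.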

How the results depend on the processing

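PAX5 kept its call and direction under all 18 alternatives run, and the counts of genes higher and lower in L428-PAX5+MAT ran from 2231 to 2871 and from 2712 to 3291 when 1 array was left out. Array weights, which gave L428-PAX5+MAT replicate 1 a weight of 15.2 and its replicates 2 and 3 weights of 0.292 and 0.25, moved these counts to 5732 and 5444, the positive and negative differences between the comparisons to 2682 and 3283, and the genes higher in L428-PAX5+MAT to 372 of the Burkitt-high and 151 of the Burkitt-low set. Without dim genes 1617 genes were higher and 602 differences between the comparisons were positive. With only the arrays of L428-PAX5+MAT and L428+MAT in the fit, 2013 genes were higher and 2560 lower in L428-PAX5+MAT. In the fit blocked on the replicate number 3347 genes were higher and 3999 lower in L428-PAX5+MAT than in L428+MAT. With that block 1818 genes were lower with mifepristone alone, and the differences between the comparisons were 1717 positive and 3013 negative. Leaving out same-numbered arrays of both groups was chosen after seeing the data. It gave 596 positive differences without the arrays numbered 2, and 1298 and 1169 negative ones without those numbered 1 and 2. The block changed the calls of CD79A, FSCN1, ISG15 and SOCS1, and no other call of a named gene. It moved 8 list counts by over 1.5 times, each given above, and others by less. Quantile normalization gave a share of 51.4% higher among the calls between the lines with the drugs, against 44.8%, and 48.7% positive among the differences between the comparisons, against 34.7%. Of 225 gene results, 184 kept direction and call under all alternatives; the others gave 110 lost calls, 18 gained calls and 26 changes of sign, all of these last in genes that did not pass. The signs turned with array weights, at -0.12 for CDKN1A, 0.20 for CR2, 0.00 for MS4A1, 0.06 for MYC, -0.04 for OASL, 0.09 for RFXANK and 0.03 for SOCS3, and with quantile normalization, at 0.12 for MYC and 0.01 for RFXANK. They turned without the arrays numbered 1, at 0.15 for CR2 and -0.15 for IRF1, numbered 2, at -0.07 for OASL and 0.00 for POU2F2, and numbered 3, at 0.12 for MS4A1 and 0.03 for RFXANK. With 1 array left out, differences ranged for CDKN1A between -0.15 and 0.31, CR2 between -0.21 and 0.19, IRF1 between -0.14 and 0.15, IRF7 between -0.58 and 0.10, MS4A1 between -0.35 and 0.16, OASL between -0.10 and 0.27 and POU2F2 between -0.03 and 0.35. The cause was not tested. Group size of 3 and the compressed scale of dim probe sets limit small differences.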
